A study of Mus musculus with 2 samples.

Results

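The transcripts followed here were those of 33 genes that carry glucose to pyruvate and decide where pyruvate goes, measured in reporter-sorted germ cells of foetal mouse gonads. The genes were taken by symbol. They cover 2 hexokinases, glucose 6-phosphate isomerase, 3 phosphofructokinases, 3 enzymes that make or remove fructose 2,6-bisphosphate, 2 aldolases and the 8 genes from triose phosphate to pyruvate. Beyond pyruvate they cover 2 lactate dehydrogenases, 3 pyruvate dehydrogenase kinases, 4 subunits of the pyruvate dehydrogenase complex and both mitochondrial pyruvate carriers, with 2 phosphoglucomutases and the transcription factor gene Hif1a beside the pathway. The rule used no measured value, but the members, and the lists set beside them below, were chosen with earlier results of these data known. All 33 members were among the 42422 genes of the count table. Of these, 31 passed the filter on low counts, and Eno2 (37 counts over the 40 libraries) and Pdk4 (129 counts) did not.

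Gonads with the mesonephros attached were taken at E12.5, after somatic sex determination, from crosses of ASMU Swiss mice with Oct4(Pou5f1)-eGFP mice on a 129svJT2 background, all wild type. Germ cells were collected by the eGFP reporter either at once (0 h) or after organ culture, and each library held cells of the gonads of several embryos. There were 10 groups of 4 libraries. These were XX and XY at 0 h, XX and XY after 24 h and 72 h in the vehicle DMSO, and XY after 24 h and 72 h with an inhibitor. The inhibitors were BGJ398 (FGFRi), which acts on FGF receptors, and PD0325901 (MEKi), which acts on the kinases MEK1/2, each at 500 nM. The inhibitors reached the whole gonad, so an effect on germ cells cannot be told apart from one passed on by somatic cells.

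Glycolysis splits glucose into pyruvate in the cytosol and yields ATP without oxygen. Lactate dehydrogenase turns pyruvate into lactate, whereas the mitochondrial pyruvate carrier and the pyruvate dehydrogenase complex pass it to the TCA cycle, and pyruvate dehydrogenase kinases switch that complex off. HIF1A is a transcription factor, stabilised when oxygen is low, that is known to raise transcription of many glycolytic genes, and primordial germ cells are known to change their reliance on glycolysis and on mitochondrial respiration as they differentiate.

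Libraries held 1178953 to 5199153 counts. They were made in 2 pools, with XX 0 h, XY 0 h, both 24 h DMSO groups and XY 24 h MEKi in the first and the other groups in the second. In comparisons of 72 h with 0 h, and of FGFRi with DMSO at 24 h, the group cannot be told apart from the pool. Germ cell markers were present in every group, with the summed level of Ddx4, Dazl, Pou5f1, Dppa3, Dnd1 and Kit between 1804 and 5619 CPM, that is counts per 1000000 of the scaled library size. The summed level of 28 markers of Sertoli, granulosa, Leydig, stromal, endothelial and blood cells ran from 110 to 677 CPM. Of the Leydig markers, Insl3 was at 0 in all 10 groups, while Star was read in 39 of the 40 libraries, Hsd3b1 in 40, Cyp11a1 in 36 and Cyp17a1 in 24. The XY 24 h MEKi libraries, at 378 to 677 CPM, lay above the XY 24 h DMSO libraries, at 173 to 310 CPM, in this sum, with haemoglobin genes leading it. At 0 h 1 XY library reached 638 CPM where the lowest had 223. In 16 pairs, a library of the first pool shared its sample index with a library of the second.

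Members held 0.314% ± 0.013 (SD, n = 4) of the counts in XX germ cells at 0 h, 0.204% ± 0.0097 at 24 h and 0.129% ± 0.0085 at 72 h. In XY germ cells the share was 0.357% ± 0.0087 at 0 h, 0.290% ± 0.017 at 24 h in DMSO and 0.275% ± 0.011 at 72 h in DMSO. With inhibitor, XY shares were 0.263% ± 0.0089 for FGFRi and 0.260% ± 0.0045 for MEKi at 24 h, and 0.268% ± 0.018 and 0.250% ± 0.011 at 72 h. The lowest shares were thus those of XX germ cells kept in culture for 72 h, and no library of that group reached the range of any XY group. In pooled sorted cells, fewer cells with a transcript and less of it per cell cannot be told apart.

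**Figure D1:**
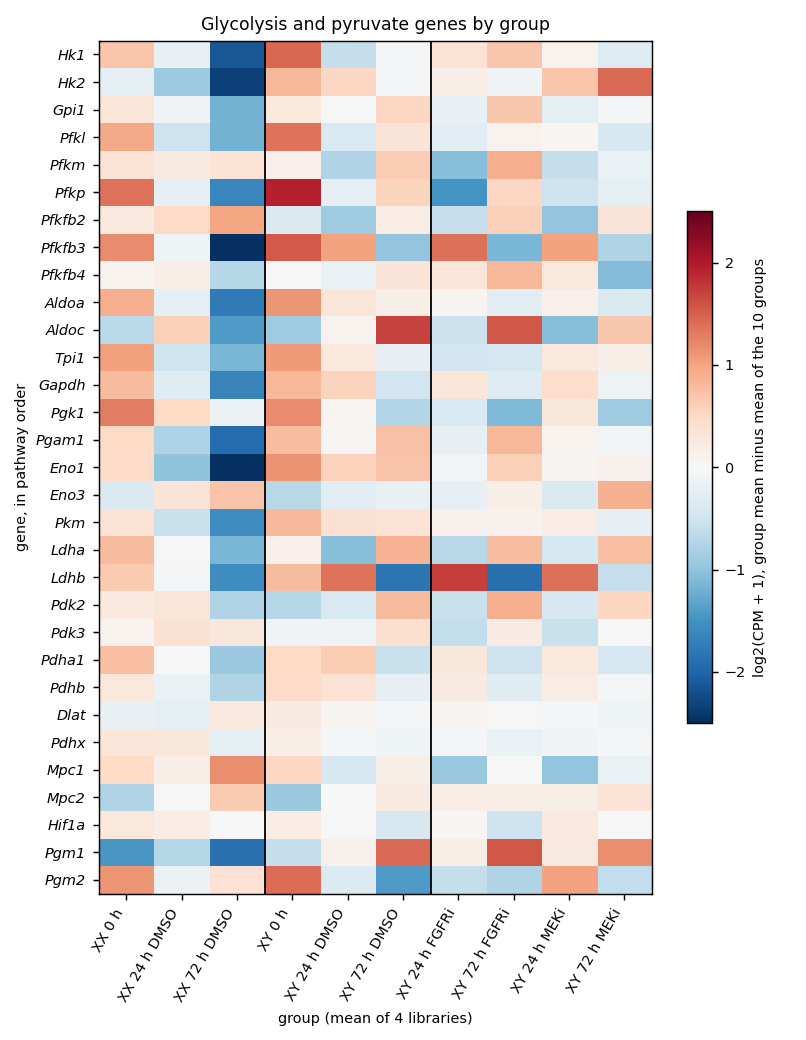
Rows are the 31 members that passed the filter, in pathway order, and columns the 10 groups. Colour gives the group mean of log2(CPM + 1) over 4 libraries minus the mean of the 10 groups. XX 72 h DMSO is the lowest group for Eno1, Pfkfb3, Hk2, Aldoa and Pgm1, and the highest for Mpc1.

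Counts of several members were uncertain, because the method reads the end of the transcript next to the poly(A) tail and near-identical copies of those ends lie elsewhere in the GRCm39 genome. In the count table, annotated copies of Gapdh, 40 in number and mostly processed pseudogenes, held 80.4% of the sum of gene and copies, those of Pgk1 63.2% (3 copies) and those of Eno1 57.5% (3 copies, chiefly Eno1b). The copies of Mpc1, Ldhb and Pdhb held 10.3%, 6.71% and 2.89%. For Pgam1, 4 further loci matched its end, the closest without a mismatch, and for Tpi1 and Pdk3 1 further locus matched, without an annotated copy in the table. The other 24 members had no second locus of at least 200 bases at 95% identity. Results are given for the counts of the gene alone. Adding the annotated copies, an alternative chosen after seeing the data, changed the call of a member in 2 instances, for Gapdh and for Ldhb, which are given with those results.

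**Figure D2:**
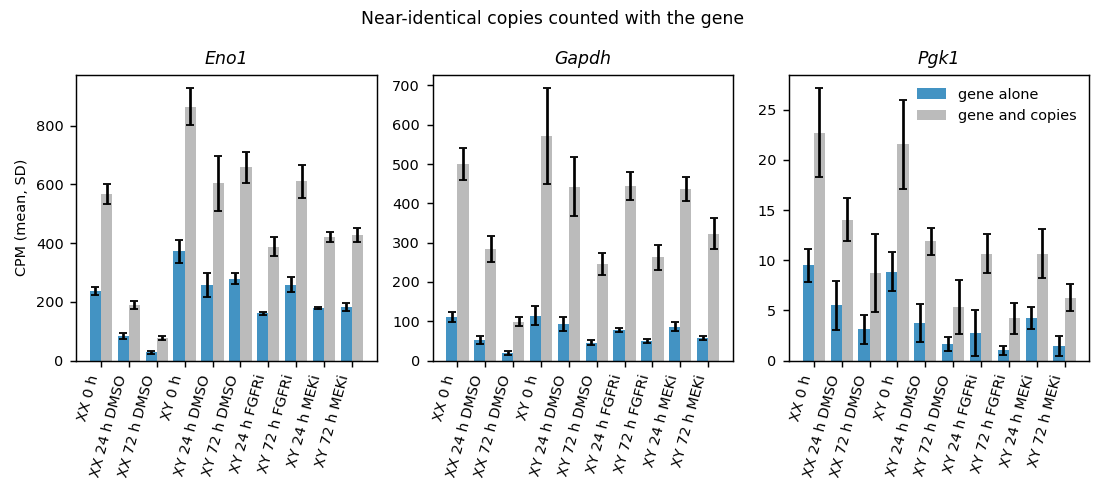
Bars give the mean CPM of 4 libraries with the SD, for each of the 10 groups, of Eno1, Gapdh and Pgk1 counted alone (blue) and together with their annotated copies (grey). XX 72 h DMSO is lower than XY 72 h DMSO for Eno1 and Gapdh either way.

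XY and XX germ cells were compared at each time to ask when the male and female transcript levels of the pathway part. A gene was called where limma's treat placed its fold change beyond 1.5 at an FDR under 0.05. The FDR is the Benjamini-Hochberg adjusted p over all 15252 genes tested, and log2 fold changes (log2FC) are given ± SE. At 0 h 1 of 31 members was called, Hk2, which was higher in XY (3.23% of members, beside 3.0% of all genes tested). At 24 h 5 were higher in XY, namely Hk2, Pfkfb3, Eno1, Pkm and Ldhb, and 1 was lower, Ldha (19.4% of members, 9.99% of all genes; 5.99% of all genes were lower). At 72 h 15 were higher in XY and 2 lower (54.8% of members, 41.0% of all genes). By direction, 22.8% of all genes were higher in XY at 72 h and 18.1% lower. Without regard to the test, XY and XX libraries did not overlap for 6 members higher and 2 lower in XY at 0 h (21.4% of all genes, 11.7% higher and 9.68% lower). There were 13 and 4 such members at 24 h (33.2% of all genes, 16.2% and 17.1%). At 72 h there were 18 and 5 (58.5% of all genes, 31.4% and 27.2%). The median log2FC of the members was 0.08, 0.02 and 1.26 at 0 h, 24 h and 72 h, against 0.03, -0.01 and 0.10 over all genes tested. Members called higher at 72 h ran through the pathway, from Hk1 and Hk2 through Gpi1, Pfkl, Pfkp, Pfkfb3, Aldoa, Aldoc, Gapdh, Pgam1, Eno1 and Pkm to Ldha, with Pdk2 and Pgm1, while Mpc1 and Pgm2 were lower. Somatic and blood markers summed to 197 to 223 CPM in XX and 223 to 638 CPM in XY at 0 h, where their median log2FC was 1.09 and none of the 19 tested was called. The sums were 152 to 182 CPM and 173 to 310 CPM at 24 h, with a median of 0.80 and Sox9 called higher in XY. At 72 h they were 135 to 206 CPM and 157 to 213 CPM, with a median of 0.17, Cdh5 called higher in XY and Foxl2, Wt1 and Hsd3b1 lower. Among germ cell markers, Pou5f1, the gene behind the sorting reporter, had 8.34 ± 2.99 CPM (SD, n = 4) in XX and 61.9 ± 2.94 CPM in XY at 72 h, and Dnd1 and Dppa3 were also called lower in XX. The other 3 of the 6 markers were not called. Dazl was at 1414 ± 107 CPM in XX and 897 ± 41.8 CPM in XY, with no overlap (log2FC -0.67), and Ddx4 and Kit had a log2FC of 0.47 and 0.07. At 24 h Dppa3 was called higher in XY (log2FC 1.39 ± 0.16, FDR = 0.000157), and the other 5 germ cell markers were not called. Of those, Pou5f1 (0.77) and Dnd1 (0.73) were higher and Ddx4 (-0.74) lower in XY without overlap. The part of these marker differences in the members' differences was not tested.

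**Figure D3:**
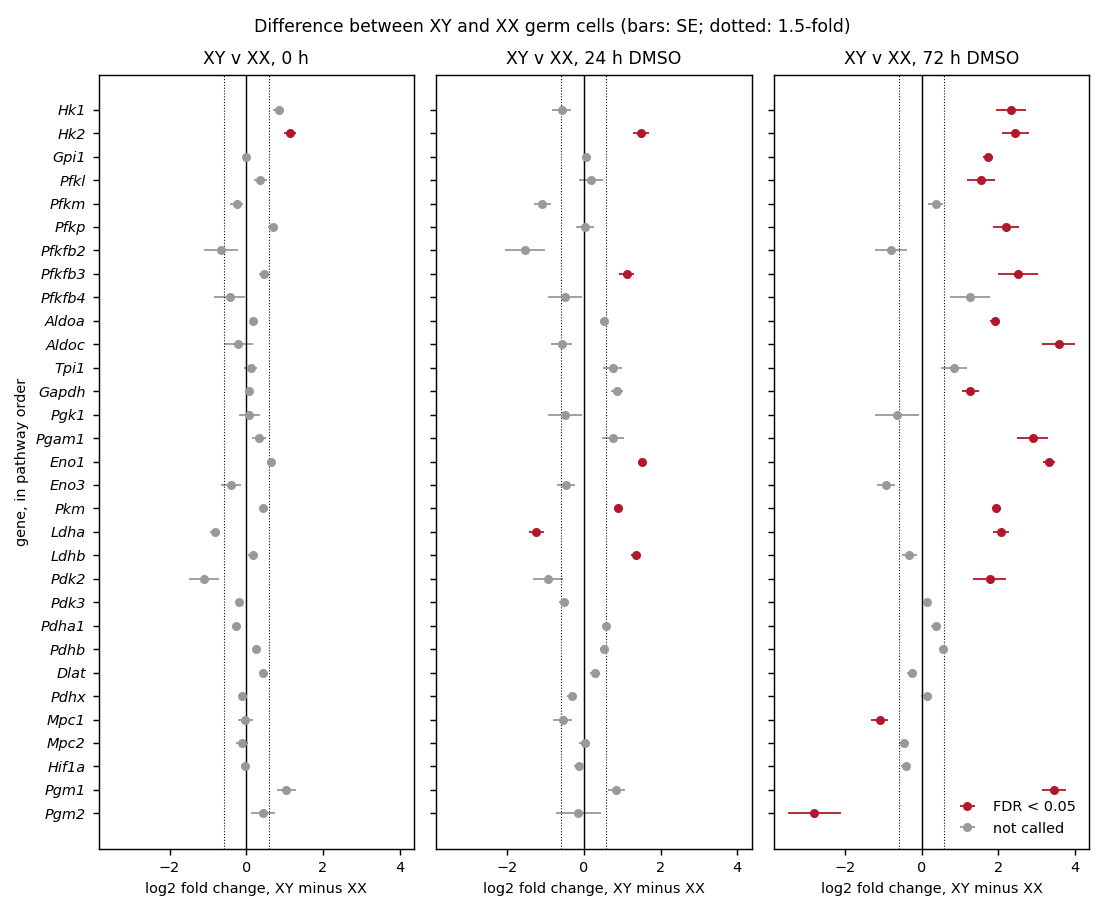
Points are log2FC of XY minus XX germ cells at 0 h, 24 h and 72 h with their SE, for the 31 members in pathway order. Red points were called at FDR under 0.05, and dotted lines mark a 1.5-fold difference. The number of red points right of 0 is 1, 5 and 15 in the 3 panels.

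Hexokinases trap glucose as glucose 6-phosphate, the first step of the pathway. Hk2, the inducible form, had 21.7, 24.3, 21.3 and 26.8 CPM in the XX libraries at 0 h and 61.9, 58.1, 36.5 and 49.8 CPM in the XY libraries. At 24 h in DMSO it had 11.8, 11.8, 16.4 and 19.2 CPM in XX and 34.2, 42.7, 43.0 and 43.3 CPM in XY. At 72 h it had 4.82, 5.16, 5.35 and 3.88 CPM in XX and 22.8, 30.5, 24.0 and 33.2 CPM in XY. XY libraries lay above all XX libraries at each of the 3 times, and Hk2 was the member called at all of them. Its log2FC was 1.14 ± 0.16 (FDR = 0.0224), 1.5 ± 0.21 (FDR = 0.000908) and 2.45 ± 0.36 (FDR = 1.05e-05). The call at 0 h was lost without any 1 of XX 0 h replicates 3 and 4 and XY 0 h replicates 2 and 3, with FDR between 0.0536 and 0.241, and with DESeq2 (FDR = 0.105). The XY 24 h DMSO libraries share their sample index with XY 72 h MEKi libraries, where Hk2 was highest, and with counts of the shared index subtracted Hk2 had an FDR of 0.0532 at 0 h and a log2FC of 1.08 (FDR = 0.22) at 24 h. Hk1, the widely expressed form, had 3.21, 3.10, 4.68 and 3.88 CPM in XX and 19.2, 22.2, 17.3 and 16.6 CPM in XY at 72 h, a 5.02-fold difference with no overlap (log2FC 2.33 ± 0.39, FDR = 0.00011). At 0 h it had 36.4, 36.3, 29.5 and 27.9 CPM in XX and 54.4, 63.6, 54.4 and 47.8 CPM in XY, which did not pass the test (FDR = 0.511).

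Phosphoglucomutases interconvert glucose 1-phosphate and glucose 6-phosphate and so tie glycolysis to glycogen. Pgm1 had 4.82, 4.65, 4.68 and 3.88 CPM in XX and 53.7, 47.7, 52.6 and 55.1 CPM in XY at 72 h (log2FC 3.46 ± 0.31, FDR = 1.51e-11), an 11-fold difference with every XY library far above every XX library. Pgm2, whose product prefers pentose phosphates, went the other way at 72 h, with 1.07, 3.61, 4.68 and 6.47 CPM in XX and 0, 0.836, 0 and 0.664 CPM in XY. These values rest on 26 counts in XX and 3 in XY, a ratio of XX to XY of 9.67 with an exact 95% interval of 2.96 to 49.9 that covers counting error only (log2FC -2.80 ± 0.69, FDR = 0.00362). Both phosphoglucomutases thus differed between the sexes, in opposite directions.

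Glucose 6-phosphate isomerase and phosphofructokinase carry the sugar to fructose 1,6-bisphosphate, the latter being the main point of control. Gpi1, the isomerase, had 74.9, 85.2, 91.7 and 71.2 CPM in XX and 233, 311, 258 and 257 CPM in XY at 72 h (log2FC 1.73 ± 0.12, FDR = 2.2e-12), whereas at 24 h it had 169 to 183 CPM in XX and 168 to 204 CPM in XY (log2FC 0.06 ± 0.11, not called). Pfkp, the platelet form of phosphofructokinase, had 10.2, 6.19, 4.01 and 7.76 CPM in XX and 36.3, 35.9, 31.3 and 33.2 CPM in XY (log2FC 2.21 ± 0.33, FDR = 2.76e-05). Pfkl, the liver form, was 2.93-fold higher in XY at 72 h (FDR = 0.0149), at 4.01 to 6.71 CPM in XX and 16.1 to 18.0 CPM in XY. The liver and platelet forms were therefore higher in XY at 72 h without overlap, while Pfkm, the muscle form, had 21.3 to 34.1 CPM in XX and 24.6 to 41.8 CPM in XY and was not called (log2FC 0.37 ± 0.19).

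Fructose 2,6-bisphosphate is the strongest activator of phosphofructokinase, and the bifunctional PFKFB enzymes set its level. Pfkfb3, the form whose kinase activity far exceeds its phosphatase activity, had 40.5, 26.5, 15.9 and 28.3 CPM in XX and 50.3, 41.7, 84.6 and 66.5 CPM in XY at 24 h (log2FC 1.11 ± 0.19, FDR = 0.0406). At 72 h it had 2.14, 2.06, 5.35 and 1.29 CPM in XX and 12.1, 12.5, 15.3 and 15.9 CPM in XY (log2FC 2.52 ± 0.53, FDR = 0.001). The 24 h call was lost without any 1 of XX 24 h DMSO replicates 5, 6 and 9 and XY 24 h DMSO replicates 4 and 5 (FDR between 0.0889 and 0.312). It was also lost with DESeq2 size factors (FDR = 0.0532), with no filter on low counts (0.242) and with DESeq2 (0.119). At both times all XY libraries were higher than all XX libraries. Pfkfb4 and Pfkfb2, at 4.48 to 8.78 and 3.33 to 4.64 CPM in XY at 72 h, were not called in a sex comparison, with log2FC at 72 h of 1.26 ± 0.52 and -0.79 ± 0.42.

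Aldolase cleaves fructose 1,6-bisphosphate into triose phosphates. Aldoc, named for its expression in brain, had 5.35, 0.516, 4.68 and 3.23 CPM in XX and 38.5, 41.0, 29.3 and 24.6 CPM in XY at 72 h (log2FC 3.58 ± 0.43, FDR = 2.83e-08), the largest sex difference among the members tested. At 0 h and 24 h its log2FC was -0.21 ± 0.38 and -0.58 ± 0.27, not called. Aldoa, the main form, was 3.76-fold higher in XY at 72 h (FDR = 2.03e-13), at 62.9 to 85.1 CPM in XX and 252 to 280.5 CPM in XY. Both aldolases were therefore higher in XY at 72 h.

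From triose phosphate the pathway runs through TPI1, GAPDH, PGK1, phosphoglycerate mutase and enolase to pyruvate kinase, which makes pyruvate and ATP. Eno1, enolase 1, had 73.4, 87.9, 78.8 and 96.6 CPM in XX and 219, 309, 271 and 228 CPM in XY at 24 h (log2FC 1.52 ± 0.11, FDR = 4.05e-09). At 72 h it had 30.5, 20.6, 32.8 and 29.8 CPM in XX and 256, 301, 273 and 284 CPM in XY (log2FC 3.32 ± 0.16, FDR = 1.18e-21). The 9.97-fold difference of Eno1 at 72 h had the smallest FDR of the members in this comparison, and with its copies added log2FC was 3.12 (FDR = 3.52e-26). Pgam1, phosphoglycerate mutase, had 2.68, 9.29, 2.68 and 1.94 CPM in XX and 27.3, 29.7, 25.3 and 27.2 CPM in XY at 72 h (log2FC 2.90 ± 0.40, FDR = 1.54e-06), with no overlap. Pkm, the pyruvate kinase of most tissues outside liver, had 292, 368, 365 and 319 CPM in XX and 650.1, 722, 634 and 564 CPM in XY at 24 h (log2FC 0.90 ± 0.11, FDR = 0.0255). Its levels at 72 h were 151, 164, 212 and 153 CPM in XX and 584, 656, 656 and 651 CPM in XY (log2FC 1.95 ± 0.11, FDR = 7.42e-16). At both times the XY libraries stood above the XX libraries, although the 24 h call was lost without any 1 of XX 24 h DMSO replicates 4 and 9 and XY 24 h DMSO replicates 2 and 3 (FDR between 0.0698 and 0.137). Gapdh was 2.41-fold higher in XY at 72 h (FDR = 0.00584), and with its copies added log2FC was 1.34 (FDR = 4.63e-06). Tpi1, Pgk1 and Eno3, the muscle enolase, were not called, with log2FC of 0.85 ± 0.33, -0.63 ± 0.57 and -0.93 ± 0.24 at 72 h.

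Lactate dehydrogenase is a tetramer of LDHA and LDHB subunits, the first of which is known to favour lactate formation. Ldha had 57.6, 52.5, 47.1 and 63.9 CPM in XX and 28.0, 33.3, 23.4 and 20.3 CPM in XY at 24 h (log2FC -1.24 ± 0.19, FDR = 0.00791). By 72 h it had 30.5, 27.9, 25.4 and 16.2 CPM in XX and 111, 119, 82.5 and 96.9 CPM in XY (log2FC 2.07 ± 0.20, FDR = 6.43e-09). XX libraries were thus the higher ones at 24 h and XY libraries at 72 h, with no overlap at either time. Before culture, at 0 h, Ldha had a log2FC of -0.82 ± 0.14, not called in the 1.5-fold test. Tested by limma against no change, it had an FDR of 6.22e-06 at 0 h. The 24 h call was lost without any 1 of XX 24 h DMSO replicate 9 and XY 24 h DMSO replicates 4 and 5 (FDR between 0.0507 and 0.211), and with no filter on low counts (FDR = 0.109). With counts of the shared sample index subtracted, an upper limit, the 54, 64, 68 and 75 counts of Ldha in the XY 24 h DMSO libraries became 3, 4, 14 and 0, and log2FC was -5.79 (FDR = 2.74e-07). Ldhb had 167, 183, 141 and 215 CPM in XX and 445, 408, 552 and 468 CPM in XY at 24 h (log2FC 1.37 ± 0.13, FDR = 8.51e-06). At 72 h it had 97.4, 52.7, 53.5 and 51.8 CPM in XX and 49.7, 45.6, 55.3 and 53.1 CPM in XY, which overlapped (log2FC -0.32 ± 0.19, not called). The subunit higher in XY was therefore Ldhb at 24 h and Ldha at 72 h.

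Entry of pyruvate into the mitochondrion needs MPC1 and MPC2 together. Mpc1 had 52.5, 61.4, 34.1 and 53.7 CPM in XX and 25.5, 25.1, 28.0 and 17.9 CPM in XY at 72 h (log2FC -1.09 ± 0.21, FDR = 0.0276), without overlap. The call was lost without any 1 of XX 72 h DMSO replicates 4 and 11 and XY 72 h DMSO replicate 6 (FDR between 0.0582 and 0.094). It was also lost with no filter on low counts (FDR = 0.0818), with DESeq2 (0.11) and without quality weights (0.0643), and with the copies added it was -1.06 (FDR = 0.0245). Mpc2 ran from 149 to 186 CPM in XX and from 114 to 138 CPM in XY and was not called (-0.45 ± 0.13). Pdk2, a kinase that inactivates pyruvate dehydrogenase, had 1.61, 3.61, 2.68 and 2.59 CPM in XX and 8.95, 9.61, 7.32 and 11.9 CPM in XY (log2FC 1.78 ± 0.44, FDR = 0.0125). It lost its call without XX 72 h DMSO replicate 11 (log2FC 1.56, FDR = 0.0608). The 4 member subunits of pyruvate dehydrogenase, Pdha1, Pdhb, Dlat and Pdhx, were not called in a sex comparison, with log2FC at 72 h of 0.38, 0.56, -0.26 and 0.13. Pdk3 (0.13 ± 0.12) and Hif1a (-0.42 ± 0.13) were not called either. Outside the members, the subunit genes Dld and Pdha2 were lower in XY at 72 h (log2FC -1.88 and -1.48, FDR = 1.93e-11 and 0.0332). The sex differences of members called at 72 h thus fell on part of the genes before pyruvate, on both phosphoglucomutases, on Ldha and, with calls that 1 library could end, on Mpc1 and Pdk2. Also before pyruvate, Pfkm, Pfkfb2, Pfkfb4, Tpi1, Pgk1 and Eno3 were not called. Pgk1, Pdk3 and Pdha1 lie on the X chromosome, and all 3 were among the members not called.

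**Figure D4:**
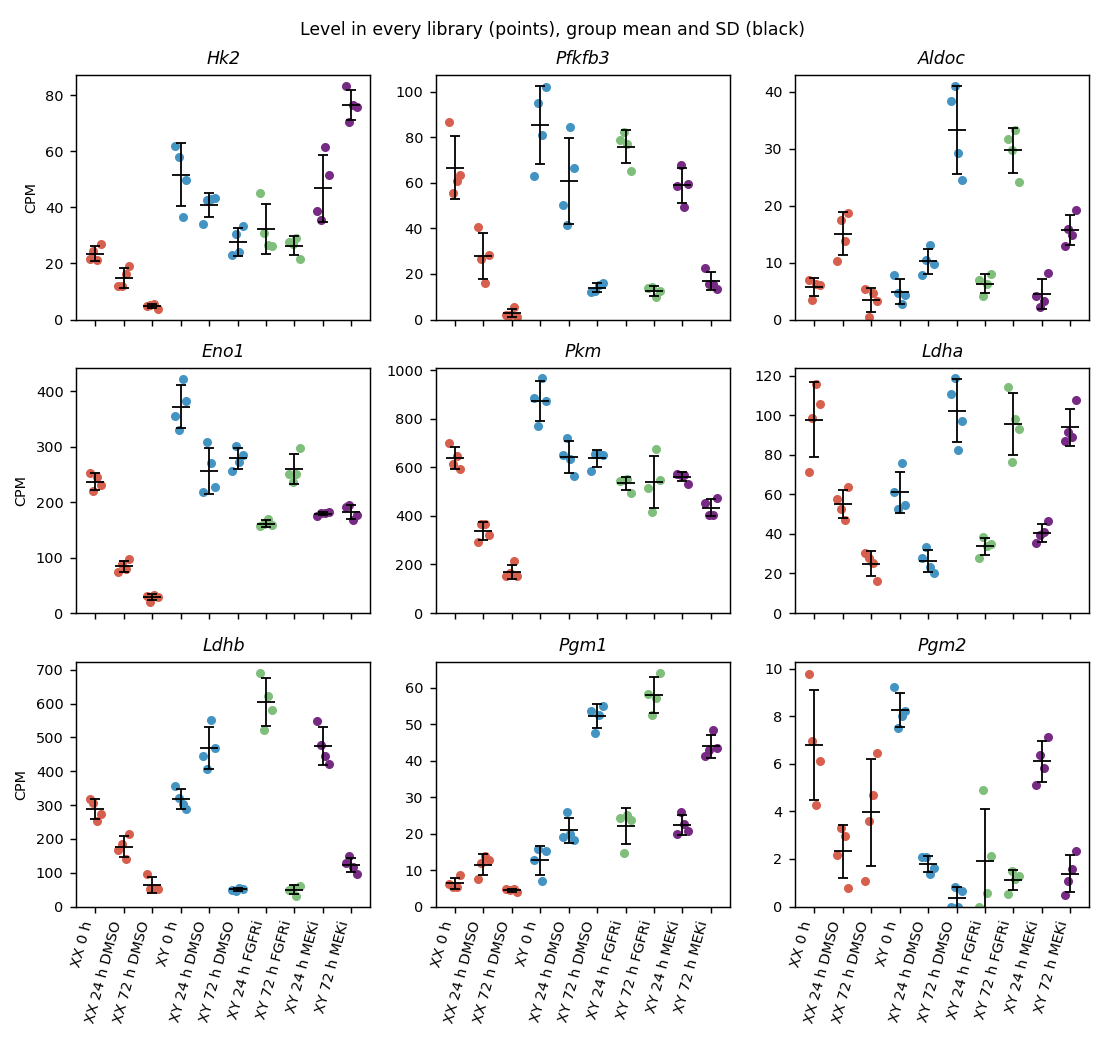
Each panel gives 1 member, with the CPM of each of the 4 libraries as points and the group mean with the SD in black, for the 10 groups. Hk2 stands highest in XY 72 h MEKi, Aldoc and Pgm1 in XY 72 h DMSO and FGFRi, and Eno1 and Pkm lowest in XX 72 h DMSO.

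Whether the sex difference had changed between 0 h and 72 h was tested as an interaction, in which the pool cancels. Of the members, 12 had a larger XY minus XX difference at 72 h than at 0 h and 1 a smaller one (28.9% of all genes tested were called, 16.0% up and 12.9% down). They were Gpi1, Pfkp, Pfkfb3, Aldoa, Aldoc, Gapdh, Pgam1, Eno1, Pkm, Ldha, Pdk2 and Pgm1, and in the other direction Pgm2. Aldoc moved by 3.78 ± 0.57 on the log2 scale (FDR = 6.71e-06), Ldha by 2.89 ± 0.24 (FDR = 2.71e-11) and Pdk2 by 2.88 ± 0.59 (FDR = 0.00101). Hk2, called at all 3 times, did not pass this test (1.31 ± 0.39, FDR = 0.103). The call for Gapdh was lost without any 1 of XX 0 h replicate 4, XY 0 h replicates 5 and 6, XX 72 h DMSO replicates 8 and 11 and XY 72 h DMSO replicate 4 (FDR between 0.0662 and 0.101), with no filter on low counts (0.127), with DESeq2 (0.067) and without quality weights (0.0575). That of Pfkfb3 was lost without XX 72 h DMSO replicate 8 (FDR = 0.0694) and that of Pfkp without XX 72 h DMSO replicate 4 or 7 (FDR of 0.0545 and 0.0559). Of the 6 germ cell markers 3 moved up, Dnd1 (4.93), Pou5f1 (2.78) and Dppa3 (2.72), and 3 were not called. Of the 19 somatic and blood markers tested 2 moved down, with a median of -0.60. The part of the markers in the members' changes was not tested.

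The starts of the genes are shown for the members with the largest differences between XY and XX at 72 h (Aldoc, Pgm1, Eno1 and Pgam1) and for Hk2. RefSeq promoter windows of the GRCm38.p6 build, from 250 bases before to 50 bases after each gene start, were found for all 33 members (49 windows). They were searched for the core of the hypoxia response element bound by HIF1A, ACGTG or GCGTG, on both strands (CACGT or CACGC), with overlapping matches joined. The 250 bases before the start are printed 5′ to 3′ on the strand of the gene, with matches in capitals; the first listed window is shown where a gene has several. They lie at chr11:78322823-78323072, plus strand for Aldoc, chr4:99929201-99929450, plus strand for Pgm1 and chr4:150236458-150236707, plus strand for Eno1. The others lie at chr19:41911621-41911870, plus strand for Pgam1 and chr6:82774455-82774704, minus strand for Hk2.
Aldoc: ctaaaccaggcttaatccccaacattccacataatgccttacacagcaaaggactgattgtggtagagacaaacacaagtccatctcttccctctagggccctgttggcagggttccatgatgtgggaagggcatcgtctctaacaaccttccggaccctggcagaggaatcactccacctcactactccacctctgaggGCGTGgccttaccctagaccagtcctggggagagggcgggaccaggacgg
Pgm1: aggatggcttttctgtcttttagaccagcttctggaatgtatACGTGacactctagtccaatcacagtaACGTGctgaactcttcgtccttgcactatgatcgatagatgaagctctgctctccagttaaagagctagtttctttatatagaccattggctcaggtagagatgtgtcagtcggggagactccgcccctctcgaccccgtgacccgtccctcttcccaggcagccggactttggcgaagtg
Eno1: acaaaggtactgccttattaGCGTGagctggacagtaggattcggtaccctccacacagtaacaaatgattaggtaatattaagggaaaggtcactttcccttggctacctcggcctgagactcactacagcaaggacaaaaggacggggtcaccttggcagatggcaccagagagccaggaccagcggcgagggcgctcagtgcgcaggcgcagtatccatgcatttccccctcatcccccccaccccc
Pgam1: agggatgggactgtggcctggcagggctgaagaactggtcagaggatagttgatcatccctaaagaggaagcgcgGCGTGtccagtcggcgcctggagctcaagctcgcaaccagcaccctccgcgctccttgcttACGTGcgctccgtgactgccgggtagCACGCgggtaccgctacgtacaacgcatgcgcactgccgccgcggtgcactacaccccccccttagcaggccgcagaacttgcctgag
Hk2: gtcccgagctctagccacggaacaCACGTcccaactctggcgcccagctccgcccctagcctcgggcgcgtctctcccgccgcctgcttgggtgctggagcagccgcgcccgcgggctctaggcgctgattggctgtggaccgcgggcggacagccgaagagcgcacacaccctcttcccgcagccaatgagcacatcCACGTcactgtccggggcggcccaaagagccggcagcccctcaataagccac

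The letters occurred in 80.0% of 25 windows of the 15 members that were higher in XY at 72 h and in 79.2% of 24 windows of the other 18 members, so both sets held them at nearly the same share. Over all 32851 windows it was 43.8%, and the median GC content was 62.3%, 60.8% and 52.7% in the 3 sets. A match describes letters in a window and does not show binding.

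Change over culture was compared with 0 h to ask in which sex the levels moved. After 24 h in DMSO, a comparison within the first pool, 7 of 31 members fell in XX germ cells and none rose (22.6% of members, 3.23% of all genes tested). Of all genes, 0.911% fell and 2.32% rose. They were Pfkl, Pfkp, Aldoa, Tpi1, Gapdh, Eno1 and Pkm. In XY germ cells 5 fell and none rose (16.1% of members, 2.94% of all genes; 1.33% of all genes fell), namely Hk1, Pfkl, Pfkp, Ldha and Pgm2. Shared between the lists were Pfkl and Pfkp, which is 2 of 7 in XX and 2 of 5 in XY. Libraries at 24 h lay apart from those at 0 h for 3 members higher and 18 lower in XX (27.7% of all genes, 15.2% and 12.5%), and for 4 and 13 in XY (20.9% of all genes, 10.1% and 10.9%).

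In XX germ cells Eno1 went from 252, 219, 246 and 231 CPM at 0 h to 73.4, 87.9, 78.8 and 96.6 CPM at 24 h (log2FC -1.47 ± 0.11, FDR = 3.16e-08). Tpi1, the triose phosphate isomerase, went from 47.6, 52.5, 43.4 and 40.4 CPM to 16.2, 13.7, 15.4 and 16.0 CPM (log2FC -1.53 ± 0.24, FDR = 0.00651). Neither overlapped its 0 h range. Pfkp went from 72.0, 61.4, 55.5 and 53.8 CPM to 22.1, 21.3, 11.9 and 23.5 CPM (log2FC -1.49 ± 0.20, FDR = 0.00131), and Aldoa and Pkm fell by 1.13 and 0.92 on the log2 scale (FDR of 0.00012 and 0.0342). The Pkm call was lost without any 1 of XX 0 h replicates 2 and 4 and XX 24 h DMSO replicates 4 and 9 (FDR between 0.0656 and 0.174). That of Pfkl was lost without XX 24 h DMSO replicate 9 (log2FC -1.33, FDR = 0.124). Gapdh fell by 1.08 (FDR = 0.0203) counted alone, but with its copies added it had a log2FC of -0.81 (FDR = 0.355). It lost the call also without any 1 of XX 0 h replicate 4 and XX 24 h DMSO replicates 4, 6 and 9 (FDR between 0.0568 and 0.134).

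In XY germ cells Hk1 went from 54.4, 63.6, 54.4 and 47.8 CPM at 0 h to 9.33, 12, 25.8 and 8.66 CPM at 24 h (log2FC -2.29 ± 0.21, FDR = 2.36e-08). Pfkp went from 85.6, 117, 90.0 and 74.9 CPM to 14.0, 10.4, 39.5 and 22.7 CPM (log2FC -2.15 ± 0.19, FDR = 1.16e-08), and Pfkl from 39.9, 30.6, 40.1 and 36.1 CPM to 11.4, 12, 7.91 and 9.74 CPM (log2FC -1.80 ± 0.24, FDR = 0.000226). All 3 fell without overlap. Ldha went from 61.0, 52.7, 75.7 and 54.5 CPM to 28.0, 33.3, 23.4 and 20.3 CPM (log2FC -1.28 ± 0.18, FDR = 0.0106), a call lost without XY 24 h DMSO replicate 4 or 5 (FDR of 0.0676 and 0.345) and with no filter on low counts (0.337). With counts of the shared index subtracted, an upper limit, its log2FC was -5.8 (FDR = 1.73e-06). The size of that fold is set by the 3, 4, 14 and 0 counts that the subtraction left at 24 h. Pgm2 went from 9.21, 7.52, 8.02 and 8.23 CPM to 2.07, 2.08, 1.38 and 1.62 CPM (log2FC -2.12 ± 0.46, FDR = 0.0301). That call was lost without any 1 of XY 0 h replicates 2 and 3 and XY 24 h DMSO replicates 3, 4 and 5 (FDR between 0.051 and 0.206), with no filter on low counts (0.206) and with counts of the shared index subtracted (0.104). Eno1 and Pkm, which fell in XX, had log2FC of -0.58 ± 0.09 and -0.46 ± 0.10 in XY, not called; the difference between the sexes in this change was not tested at 24 h.

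Against 0 h, 72 h in DMSO gave 17 members that fell and 2 that rose in XX (37.2% of all genes called, 18.4% lower and 18.8% higher), with a median log2 fold change of -1.51 against -0.01 over all genes. XY germ cells at 72 h had 11 lower and 4 higher (35.5% of all genes called, 15.2% lower and 20.2% higher), with a median of -0.40 against 0.06. In both, time cannot be told apart from the pool. Of the 6 germ cell markers 4 were also lower in XX, Pou5f1, Dppa3, Dnd1 and Kit (log2FC between -3.62 and -2.47), and their summed level went from 2878 to 3183 CPM at 0 h to 1804 to 2036 CPM. In XY 2 were higher (Ddx4 and Dnd1) and 1 lower (Kit). Of the 19 somatic and blood markers tested, 5 were higher and 1 lower in XX and 3 higher and 3 lower in XY, and their part in the members' changes was not tested. Among the members, Pfkfb3 fell by 4.72 on the log2 scale in XX (FDR = 2.06e-10) and by 2.66 in XY (FDR = 3.52e-11), and Ldhb by 2.15 (FDR = 2.29e-12) and 2.64 (FDR = 3.61e-16). Aldoc, by contrast, rose in XY (2.79 ± 0.31, FDR = 2.61e-08) and had -0.99 ± 0.48 in XX, not called. Mpc2 rose in XX (1.47 ± 0.14, FDR = 2.83e-07) and in XY (1.13 ± 0.15, FDR = 0.00126). Eno3 rose in XX (1.17 ± 0.23, FDR = 0.0191), a call lost without XX 0 h replicate 3 or 4 (FDR of 0.0545 and 0.0895). Pdk2 and Pgm1 rose in XY (1.79 ± 0.39 and 1.91 ± 0.18; FDR = 0.00553 and 1.1e-08), the first lost without XY 0 h replicate 3 (FDR = 0.0622). Pgm2 in XY went from 80 counts at 0 h to 3 at 72 h, a ratio of 20.8 (exact 95% interval 6.85 to 103). Hk2 fell by 0.97 in XY (FDR = 0.038), lost without any 1 of XY 0 h replicates 2 and 3 and XY 72 h DMSO replicates 2 and 5 (FDR between 0.112 and 0.182). With DESeq2 size factors Hk2 had an FDR of 0.123, with DESeq2 0.403, without quality weights 0.0565 and with counts of the shared index subtracted 0.0508. Pgk1 fell by 1.65 in XX (FDR = 0.0257), lost without XX 72 h DMSO replicate 11 (log2FC -1.21, FDR = 0.195) and with DESeq2 (FDR = 0.114). Pdha1 fell by 1.73 in XX and by 1.08 in XY, and Pdhb by 1.01 in XX.

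The inhibitors were compared with DMSO to ask whether FGF receptor or MEK1/2 signalling in the cultured testis bore on these transcripts. After 24 h no member was called with MEKi (0.164% of all genes tested were called, 0.0525% higher) or with FGFRi (0.262% of all genes; here the inhibitor cannot be told apart from the pool). At an unadjusted p under 0.05 limma found 1 member with MEKi and 2 with FGFRi (2.31% and 2.58% of all genes); edgeR called 0 and 1, and DESeq2 0 and 0. With counts of the shared sample index subtracted from the DMSO libraries Ldha was called with both, at a log2FC of 5.4 with MEKi (FDR = 2.21e-05) and 5.17 with FGFRi (FDR = 6.31e-05). These folds rest on the 3, 4, 14 and 0 counts that the subtraction left, and 1.76% and 1.83% of all genes were then called. After 72 h no member was called with FGFRi (0.00656% of all genes, that is 1 gene; 0 members and 0.584% of all genes at an unadjusted p under 0.05, 0 by edgeR and 0 by DESeq2). With MEKi at 72 h Hk2 and Ldhb rose and Aldoc fell (2 higher and 1 lower of 31, beside 9.12% of all genes called, 4.01% higher and 5.11% lower). MEKi and DMSO libraries at 72 h did not overlap for 4 members higher and 11 lower (38.3% of all genes, 18.9% and 19.4%), and the median log2FC was -0.14. Of the 6 germ cell markers Dnd1 was called lower (log2FC -1.25 ± 0.12, FDR = 5.33e-05) and 5 were not called. Without overlap, 2 of the 6 were higher and 2 lower. Of the 19 somatic and blood markers tested 1 was called, which was lower, with a median of -0.52. Their part in the members' changes with MEKi was not tested.

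**Figure D5:**
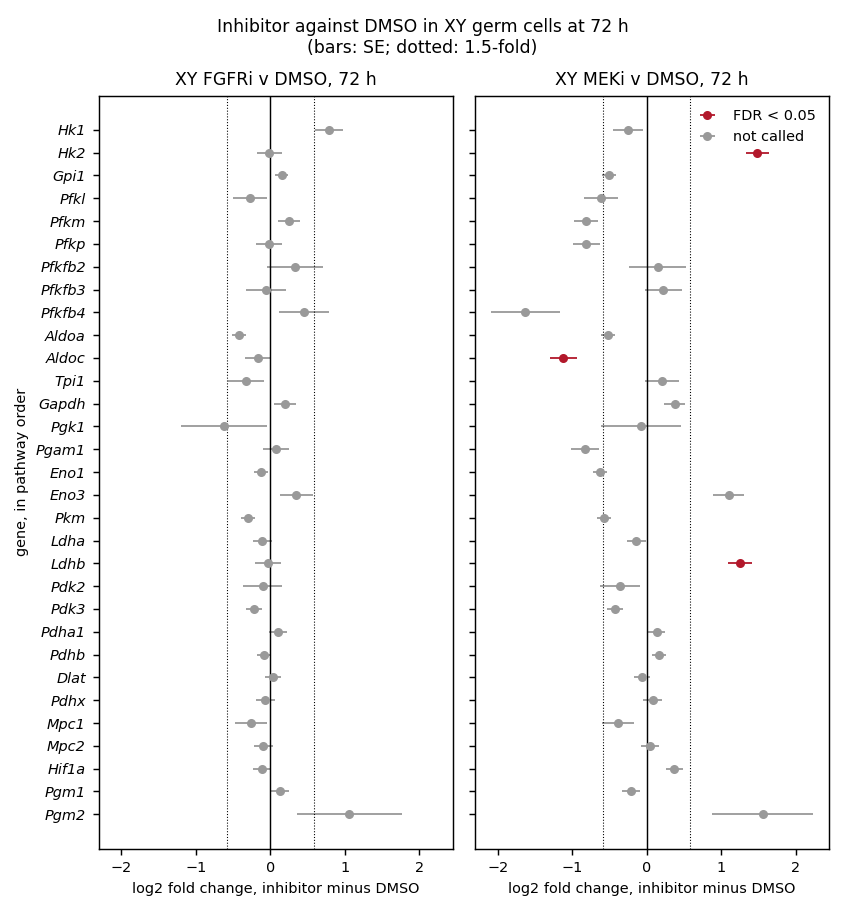
Points are log2FC of XY germ cells with inhibitor minus DMSO after 72 h, with their SE, for FGFRi (left) and MEKi (right) over the 31 members. Red points were called at FDR under 0.05: none with FGFRi, and Hk2 and Ldhb (higher) and Aldoc (lower) with MEKi.

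Hk2 had 83.4, 70.4, 76.3 and 75.6 CPM in the XY libraries after 72 h of MEKi, 27.7, 27.0, 29.0 and 21.6 CPM after FGFRi and 22.8, 30.5, 24.0 and 33.2 CPM in DMSO. All MEKi libraries lay above all others, 2.79-fold over DMSO (log2FC 1.48 ± 0.16, FDR = 1.6e-05) and 2.82-fold over FGFRi (FDR = 3.67e-07). At 24 h it had 38.5, 35.6, 61.4 and 51.5 CPM with MEKi and 34.2, 42.7, 43.0 and 43.3 CPM in DMSO, which overlapped (log2FC 0.15 ± 0.16). The MEKi effect was larger at 72 h than at 24 h by 1.33 ± 0.22 on the log2 scale (FDR = 0.0407), the only member called there. Of all genes 1.88% were called in this interaction, 1.21% up and 0.675% down. The call was lost (FDR between 0.0538 and 0.192) without any 1 of 10 of the 16 libraries, namely XY 24 h DMSO replicates 4 and 5, XY 24 h MEKi replicates 1 and 2, XY 72 h DMSO replicates 2, 4 and 5, and XY 72 h MEKi replicates 2, 4 and 5. With counts of the shared sample index subtracted the change was 0.78 (FDR = 0.865). The Hk2 call was also lost with DESeq2 size factors (FDR = 0.0831), with DESeq2 (0.367) and without quality weights (0.0633). In the same interaction 3 of 19 somatic and blood markers tested moved down (15.8%, median -1.16). With MEKi at 24 h alone 3 of these 19 were called higher. Of the 6 germ cell markers Dnd1 moved down (-1.21 ± 0.18, FDR = 0.0383) and 5 were not called. The part of the markers in the change of Hk2 was not tested.

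Ldhb had 128, 149, 117 and 96.8 CPM after 72 h of MEKi, 49.9, 55.5, 31.3 and 62.1 CPM after FGFRi and 49.7, 45.6, 55.3 and 53.1 CPM in DMSO. MEKi libraries were all above the others, 2.39-fold over DMSO (log2FC 1.26 ± 0.16, FDR = 0.0016). Its MEKi effect was larger at 72 h than at 24 h by 1.23 ± 0.20 (FDR = 0.0526), close to the value of Hk2 but not called. That change of Ldhb was called by edgeR (1.27, FDR = 0.014), with its copies added (1.21, FDR = 0.047) and with counts of the shared index subtracted (1.51, FDR = 0.00241). Aldoc had 12.9, 15.9, 14.9 and 19.2 CPM after MEKi, 31.8, 29.8, 33.2 and 24.1 CPM after FGFRi and 38.5, 41.0, 29.3 and 24.6 CPM in DMSO (log2FC -1.12 ± 0.18, FDR = 0.0308 for MEKi against DMSO). Its MEKi libraries were all below the DMSO libraries, and still above the XX libraries at 72 h, at 0.516 to 5.35 CPM. The Aldoc call was lost without any 1 of XY 72 h DMSO replicates 2 and 4 and XY 72 h MEKi replicates 3 and 4 (FDR between 0.109 and 0.151). With no filter on low counts Ldhb had an FDR of 0.142 and Aldoc of 0.709, and Aldoc had 0.14 with DESeq2 and 0.0579 without quality weights.

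Against FGFRi at 72 h, MEKi gave 2 members higher, again Hk2 and Ldhb, and 3 lower (12.7% of all genes called, 5.71% higher and 6.98% lower). Pfkfb4 had 0, 3.58, 2.18 and 2.35 CPM with MEKi and 7.45, 8.33, 9.66 and 10.8 CPM with FGFRi (log2FC -2.08 ± 0.40, FDR = 0.00355), and Pfkm had 15.9, 21.1, 19.8 and 19.6 CPM and 38.9, 46.4, 46.0 and 34.5 CPM (log2FC -1.07 ± 0.14, FDR = 0.00774). Hk1 had 11.9, 19.9, 15.5 and 15.3 CPM and 34.5, 35.6, 32.5 and 26.7 CPM (log2FC -1.04 ± 0.16, FDR = 0.0294). This call was lost without any 1 of XY 72 h FGFRi replicates 2 and 4 and XY 72 h MEKi replicates 2, 4 and 5 (FDR between 0.0529 and 0.107), with DESeq2 (0.153) and without quality weights (0.0733). With no filter on low counts the FDR was 0.267 for Hk1, 0.103 for Pfkm and 0.0946 for Ldhb, so that these calls were lost. The libraries with MEKi and FGFRi did not overlap for any of Pfkfb4, Pfkm and Hk1. Against DMSO, MEKi gave a log2FC of -1.63 ± 0.46 for Pfkfb4, -0.82 ± 0.16 for Pfkm and -0.25 ± 0.20 for Hk1, none of them called.

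Members that stood high in XY at 72 h were compared in the MEKi group with both sexes as a description. Pgm1 had 41.2, 43.0, 48.6 and 43.5 CPM after MEKi and 53.7, 47.7, 52.6 and 55.1 CPM in DMSO (log2FC -0.21 ± 0.12, FDR = 1), against 3.88 to 4.82 CPM in XX. Eno1 had 191, 195, 168 and 176 CPM after MEKi and 256, 301, 273 and 284 CPM in DMSO (-0.63 ± 0.09, FDR = 1), against 20.6 to 32.8 CPM in XX. Pgam1 had 10.4, 13.4, 16.3 and 23.1 CPM after MEKi and 27.3, 29.7, 25.3 and 27.2 CPM in DMSO (-0.83 ± 0.19, FDR = 0.507). For Eno1 and Pgam1 the MEKi libraries lay below all DMSO libraries and for Pgm1 the ranges overlapped; none passed the 1.5-fold test, and all MEKi libraries stayed above the XX libraries.

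Genes around the pathway were taken from further lists. None of their genes was called between XY and XX at 0 h or with FGFRi at 72 h. Of 24 other glycolysis and pyruvate genes 13 were tested, with 4 higher and 5 lower in XY at 72 h (69.2%, against 41.0% of all genes) and a median log2FC of 0.23. Pdk1, the pyruvate dehydrogenase kinase that was not a member, had 30.8, 30.7, 28.2 and 34.7 CPM in XX and 143, 152, 151 and 143 CPM in XY at 24 h (log2FC 2.20 ± 0.18, FDR = 2.67e-10). It had 26.0, 31.9, 44.4 and 29.0 CPM after 24 h of MEKi (log2FC -2.20 ± 0.17, FDR = 2.07e-09 against DMSO) and 40.8, 22.8, 32.1 and 31.6 CPM after 24 h of FGFRi (log2FC -2.22 ± 0.19, FDR = 1.9e-08, across pools). At 72 h Pdk1 was also lower with MEKi than in DMSO (-1.23 ± 0.16, FDR = 0.00274), and had -1.11 ± 0.16 (FDR = 1) with FGFRi. Both inhibitors share the DMSO libraries. Pdp2, a phosphatase that reactivates pyruvate dehydrogenase, was higher in XY at 72 h (log2FC 3.70 ± 0.31, FDR = 6.78e-13) and lower with MEKi (log2FC -1.22 ± 0.14, FDR = 0.000705). So was Ldhc, the lactate dehydrogenase of the testis (3.58 ± 0.37, FDR = 8.83e-10, and -1.05 ± 0.15, FDR = 0.0231). Pdk1 was thus the kinase of this group called with both inhibitors at 24 h, while Pdk2 and Pdk3 were called with neither.

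Of 8 glucose and lactate transporters 7 were tested, with 2 higher and none lower in XY at 72 h (28.6%, against 41.0% of all genes in either direction and 22.8% higher). The glucose transporter gene Slc2a1 was higher in XY at 24 h (log2FC 1.81 ± 0.16, FDR = 1.74e-08) and at 72 h (log2FC 1.10 ± 0.18, FDR = 0.00804). Slc2a3, another glucose transporter, was higher in XY at 72 h (log2FC 2.83 ± 0.26, FDR = 6.2e-11) and lower with MEKi (log2FC -1.06 ± 0.13, FDR = 0.00452). Slc16a7, a monocarboxylate transporter, was lower in XY at 24 h (log2FC -3.64 ± 0.71, FDR = 0.000891). All 19 TCA cycle genes were tested, and at 72 h 4 were higher and 6 lower in XY (52.6%), with a median log2FC of -0.18. Mdh2 was among the higher (1.72 ± 0.11) and Suclg2 among the lower (-1.22 ± 0.24). MEKi raised 2 of the 19 at 72 h, Suclg2 (log2FC 1.42 ± 0.21, FDR = 0.00292) and Idh2 (log2FC 1.18 ± 0.19, FDR = 0.0188). Of the 8 pentose phosphate pathway genes 2 were higher and 3 lower in XY at 72 h (62.5%), the latter including Pgd (log2FC -1.59 ± 0.13, FDR = 7.22e-10), G6pdx (log2FC -1.76 ± 0.19, FDR = 6.64e-07) and Rpe (log2FC -1.68 ± 0.34, FDR = 0.00355). G6pdx lies on the X chromosome, and the part of this in its difference was not tested. Pgd was higher with MEKi (log2FC 1.33 ± 0.12, FDR = 3.05e-06). Of 16 HIF1A target genes outside glycolysis 13 were tested, and 5 were higher and none lower in XY at 72 h (38.5%, against 41.0% of all genes in either direction and 22.8% higher). Among them were Ndrg1 (2.55 ± 0.38), P4ha2 (2.10 ± 0.30) and Kdm3a (1.73 ± 0.11), which fell with MEKi by 1.24 (FDR = 2.12e-07). Median log2 fold changes at 72 h were thus 1.26 for the 31 members, 0.23 for the 13 other glycolysis and pyruvate genes, 0.80 for the transporters, 0.48 for the HIF1A targets, -0.18 for the TCA cycle and -0.47 for the pentose phosphate pathway.

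Between XY and XX at 24 h, where 9.99% of all genes were called, the calls in these lists were 23.1% of the other glycolysis and pyruvate genes (1 higher, 2 lower), 28.6% of the transporters (1 and 1), 5.26% of the TCA cycle (1 and 0), 7.69% of the HIF1A targets (0 and 1) and 0% of the pentose phosphate pathway. With MEKi against DMSO at 72 h (9.12% of all genes), 30.8% of the other glycolysis and pyruvate genes were called (1 higher, 3 lower), 28.6% of the transporters (1 and 1), 10.5% of the TCA cycle (2 and 0), 25.0% of the pentose phosphate pathway (1 and 1) and 15.4% of the HIF1A targets (1 and 1). Against FGFRi (12.7% of all genes) the shares were 15.4% (1 and 1), 28.6% (1 and 1), 10.5% (2 and 0), 37.5% (2 and 1) and 15.4% (1 and 1) in that order. Culture for 24 h lowered 1 transporter in XX (14.3%, against 3.23% of all genes), and in XY 1 HIF1A target and 1 other glycolysis and pyruvate gene (7.69% each, against 2.94% of all genes). With an inhibitor at 24 h, Pdk1 was the gene called. Each of these shares rests on lists of 7 to 19 genes, in which 1 gene is 5.26% to 14.3%.

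Between 0 h and 72 h, across pools, 37.2% of all genes were called in XX and 35.5% in XY. The shares in XX were 52.6% for the TCA cycle (2 rose, 8 fell), 30.8% for the HIF1A targets (0 and 4), 46.2% for the other glycolysis and pyruvate genes (3 and 3) and 57.1% for the transporters (1 and 3), with 4 of 8 genes of the pentose phosphate pathway called (2 and 2). In XY they were 31.6% (0 and 6), 38.5% (3 and 2), 38.5% (2 and 3), 28.6% (1 and 1) and 12.5% (0 and 1) in that order. In the interaction of sex with time (28.9% of all genes), 30.8% of the HIF1A targets were called (4 up), 47.4% of the TCA cycle (3 up, 6 down), 62.5% of the pentose phosphate pathway (2 and 3), 46.2% of the other glycolysis and pyruvate genes (2 and 4) and 14.3% of the transporters (1 up). The MEKi effect changed from 24 h to 72 h (1.88% of all genes) for 2 pentose phosphate pathway genes, which moved up, and for 1 HIF1A target and 1 other glycolysis and pyruvate gene, which moved down.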

How the data were processed

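RNA was measured in 40 libraries of sorted germ cells. The authors deposited raw counts for each gene, a column for every library. In the authors' methods, the primer on the poly(A) tail carried a sample index and a unique molecular identifier, reads were demultiplexed with scPipe and aligned to GRCm39 with Rsubread, and reads with 1 identifier were collapsed. The deposited counts are neither normalised nor filtered, and versions of these tools are not given in the sources used here. Because counts come from transcript ends, levels were not divided by length and were not compared between genes. A second deposited table holds the sample index of each library, which showed the 16 shared indices. Replicates are libraries that the labels number within a group; p-values measure the spread between them.

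Groups were taken from the library names in the labels. Members and lists were chosen with earlier results of these data known. Genes were matched by Ensembl identifier to GENCODE M39 (40391 of 42422). Genes were kept with filterByExpr of edgeR 4.0.16 (minimum count 10, minimum total 15), which left 15252 with 99.2% of the counts, and scaled by TMM. As in the study's methods, limma 3.58.1 in R 4.3.3 fitted a mean for each of the 10 groups to the 40 libraries by voomWithQualityWeights. Its treat function then tested for changes beyond 1.5-fold (log2 0.585). Of the comparisons, 9 were within a pool, 3 across pools and 2 were interactions. CPM use the TMM-scaled library size. Depth ran from 1178953 to 5199153 counts, which, with 4 libraries per group, limits the precision. The steps were tested on simulated data. Ends of member transcripts (500 bases) were searched in GRCm39 with blastn 2.17.0.

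Values of every library are given for the 12 members with the largest fold change among those called within a pool and for members called in 1 such comparison; up to 3 genes are named per other list. Alternatives were DESeq2 1.42.0 size factors, no filter, edgeR's glmTreat, DESeq2's Wald test, limma against no change, no quality weights, the replicate number as a block, each replicate left out, and subtraction of counts from a shared index. For the last, each library of the first pool that shared an index lost a share of its partner's counts. The share was set at the lowest 1% of the ratios between the pair over genes with at least 200 counts, an upper limit. The XY 24 h MEKi libraries had no partner and lost none, while the XY 24 h DMSO libraries lost 16.8% to 26.6% of their counts. Adding copies was chosen after seeing the data. Intervals cover counting error only. Libraries of gonadal somatic cells were not used here.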

Additional observations from a re-analysis of the deposited data

Results flagged for a closer look

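In 320 groups of 4 libraries, 1 library stood apart from the other 3 for 21 values by Dixon's ratio of gap to range (95% critical value), in 17 libraries and at most 2 in 1 library; chance sets apart about 1 in 20 groups. For Pkm these were XY 24 h MEKi replicate 6 with 532.7 CPM, XY 24 h FGFRi replicate 5 with 494.3 CPM and XY 72 h DMSO replicate 2 with 584.1 CPM, each below the others of its group. Aldoa had 467.9 CPM in XY 0 h replicate 3, under 524.9 CPM in the next, and 85.12 CPM in XX 72 h DMSO replicate 11, over 66.08 CPM in the next. Hk2 had 34.22 CPM in XY 24 h DMSO replicate 2, Gpi1 182.8 CPM in XX 24 h DMSO replicate 9, Pfkfb2 8.118 CPM in XY 72 h FGFRi replicate 5, and Pfkfb4 11.58 CPM in XY 0 h replicate 5. Pgk1 had 1.692 CPM in XY 72 h FGFRi replicate 2, Pgam1 9.292 CPM in XX 72 h DMSO replicate 4, Ldhb 97.43 CPM in XX 72 h DMSO replicate 11 and Pdk2 5.572 CPM in XY 24 h MEKi replicate 1. Pdha1 had 123.3 CPM in XY 0 h replicate 2 and 95.62 CPM in XY 24 h MEKi replicate 2, Pdhb 129.3 CPM in XY 72 h MEKi replicate 3, and Pdhx 42.85 CPM in XX 72 h DMSO replicate 4 and 39.03 CPM in XY 72 h MEKi replicate 3. Mpc1 had 29.31 CPM in XY 72 h FGFRi replicate 6 and Pgm1 14.66 CPM in XY 24 h FGFRi replicate 3. Members took 0.344% of the counts in XY 0 h replicate 2, the lowest share of that group.

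The difference between XY and XX changed from 0 h to 72 h, by the interaction test, for 13 members. In log2 units the change was 3.783 for Aldoc, 2.887 for Ldha, 2.884 for Pdk2, 2.683 for Eno1, 2.571 for Pgam1, 2.417 for Pgm1 and 2.057 for Pfkfb3. It was 1.735 for Gpi1, 1.732 for Aldoa, 1.515 for Pfkp, 1.507 for Pkm, 1.197 for Gapdh and -3.226 for Pgm2. The MEKi effect changed from 24 h to 72 h for Hk2, by 1.330.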

How the results depend on the processing

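Of 92 calls of members, 57 held in every alternative and none changed direction. The 35 others were lost in at least 1, leaving out a replicate included. A call can be lost in several: 3 were with DESeq2 size factors, 11 with no filter on low counts, 9 with DESeq2 and 6 without quality weights. Subtracting counts of the shared index ended 5, adding copies 1, and glmTreat or limma against no change 0. The replicate block ended calls too, but it left XX 72 h DMSO with 1 library, so its count is not given. Pdk2 in XY at 72 h against 0 h was lost only without XY 0 h replicate 3. The cause was not tested. Of 508 counts of members by direction under an alternative, 417 were within 1.5 times the reported count. Depth limits genes read at a few CPM, such as Pgm2, Pgk1, Pdk2 and Pfkfb4.

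Against no change rather than 1.5-fold, a weaker criterion by construction, limma called more members. XY against XX gave 9 higher and 3 lower at 0 h (24.2% of all genes were called), 12 and 5 at 24 h (38.8%) and 19 and 6 at 72 h (67.4%). For 24 h against 0 h it gave 3 and 15 in XY (24.8%) and 5 and 17 in XX (30%), and for 72 h against 0 h 9 and 18 in XY (65.7%) and 5 and 19 in XX (65.5%). FGFRi gave 1 and 4 at 24 h (6.33%) and 1 and 1 at 72 h (1.08%), MEKi 3 and 4 at 24 h (5.89%) and 5 and 11 at 72 h (45.8%), MEKi against FGFRi 6 and 10 (52.1%), the change in sex difference 18 up and 4 down (54%), and the change in MEKi effect 4 and 7 (23.2%).

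With no filter there was 0 lower in XY at 24 h and 1 at 72 h, 3 lower after 24 h in XY, 1 higher and 0 lower with MEKi at 72 h, and 1 and 1 against FGFRi. With glmTreat 3 were lower in XY at 24 h, 1 higher after 24 h in XX, 1 lower with FGFRi at 24 h (Pfkp), and the MEKi effect moved up for 2. With DESeq2 0 were higher in XY at 0 h, 1 was lower at 72 h, 0 were lower with MEKi at 72 h, and 0 moved up in the MEKi effect. Without quality weights 1 was lower in XY at 72 h, 0 lower with MEKi at 72 h and 0 up in the MEKi effect, which was also 0 with DESeq2 size factors and 2 with copies added. With counts of the shared index subtracted 0 were higher in XY at 0 h, 2 lower at 24 h (Ldha and Pfkfb2), 1 higher with each inhibitor at 24 h (Ldha), and the MEKi effect moved down for 1 (Ldha).

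The replicate number as a block lowered the share of all genes called too. It gave 0 members higher in XY at 0 h (2.11% of all genes called), and 3 higher and 0 lower at 24 h (7.85%). In XX 3 were lower after 24 h (1.53%). With MEKi at 72 h 0 were lower (5.56%), and 1 was lower against FGFRi (6.8%). Replicate numbers 7, 8 and 11 of XX 72 h DMSO occur in no other group. The block therefore left replicate 4 alone to set the level of that group, and counts for its comparisons are not given. Replicate number 9 of XX 24 h DMSO likewise occurs in no other group. What samples with the same number share beyond it was not tested. Correlations of their deviations from the group means ran from -0.322 to 0.323 over 30 pairs, 4 of them over 0.1. Pairs with different numbers were not compared.

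Leaving out 1 replicate in turn gave 0 to 1 higher in XY at 0 h, 3 to 4 higher and 0 to 1 lower at 24 h, and 14 to 15 higher and 1 to 2 lower at 72 h. After 24 h 3 to 5 were lower in XY, and 0 to 1 higher and 4 to 8 lower in XX; after 72 h 3 to 5 were higher and 10 to 11 lower in XY, and 1 to 2 higher and 16 to 17 lower in XX. With MEKi at 72 h 2 to 3 were higher and 0 to 1 lower, and against FGFRi 2 higher and 2 to 4 lower. The change of sex difference gave 10 to 13 up and 1 down, the change of MEKi effect 0 to 2 up, and the other comparisons with an inhibitor 0.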

Other observations

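Both members that did not pass the filter had few counts. Eno2, the neuronal enolase, was read in 13 of 40 libraries, with 1.34, 4.18, 0.666 and 1.33 CPM in the XY 72 h DMSO libraries and 0.338, 1.26, 2.71 and 0 CPM with FGFRi, and it was at 0 in every library of XX 72 h DMSO, XY 24 h MEKi and XY 24 h FGFRi. With MEKi at 72 h Eno2 had 0, 0.179, 0 and 0.392 CPM. Tested with no filter on low counts, Eno2 was called higher in XY than in XX at 72 h (log2 fold change 2.51, FDR = 0.00179), in XY at 72 h against 0 h (2.82, FDR = 0.00161, across pools) and in the change of sex difference (2.82, FDR = 0.0171), by limma's treat. These fitted folds of Eno2 are against groups at or near 0 and rest on 37 counts in all.

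Pdk4, a pyruvate dehydrogenase kinase induced by fasting in other tissues, was read in 26 of 40 libraries. It had 1.95 to 3.86 CPM in XX and 0 to 5.45 CPM in XY at 0 h, and 0 to 0.669 CPM in XX and 0 to 1.33 CPM in XY after 72 h in DMSO. With no filter, Pdk4 was called lower in XX at 72 h than at 0 h (log2 fold change -2.83, FDR = 0.000426, by limma's treat), a comparison across pools that rests on few of the 129 counts.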
